A study of Mus musculus with 16 samples.

Results

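The collagens, the matrix metalloproteinases (MMPs), their tissue inhibitors (TIMPs) and the lysyl oxidases (LOX) were followed across 4 treatment groups in mouse liver. Members were chosen by gene symbol alone, as every collagen chain gene, every Mmp gene except Mmp12, Timp1 to Timp4, Lox and Loxl1 to Loxl4. This gave 75 of the 50559 symbols in the deposited table, namely 44 collagen chains, 22 MMPs, 4 TIMPs and 5 LOX enzymes. The study asked how lowering ketohexokinase (KHK), the first enzyme of fructose breakdown, with an siRNA differs from blocking its kinase activity with a small molecule. Liver RNA was sequenced from 16 mice, 4 in each group, and nothing in the labels pairs a mouse of one group with a mouse of another.

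All mice were male C57BL/6J, which the labels write as C57Bl6, and were put on their diets at 6 weeks of age. The diets lasted 10 weeks, and treatment covered the last 4 of these. LFD mice ate a low-fat diet, which the labels call chow, and were given a control siRNA to luciferase, at 10 mg/kg every 2 weeks, with gavage of methylcellulose. HFD mice ate a diet with 60% fat and received the same control siRNA and gavage. HFD + siRNA mice received siRNA to Khk (20 mg/kg every 2 weeks) in place of the control siRNA, with the methylcellulose gavage, so that their siRNA dose was also higher than that of the other groups. HFD + Inhib mice received the control siRNA (10 mg/kg) and the KHK inhibitor PF-06835919 (15 mg/kg by gavage, 2 times a day). Shortly before the livers were taken, mice received saline or insulin, and which of these each sequenced mouse received is not given in the labels. The siRNA carries N-acetylgalactosamine, a sugar that directs it to hepatocytes, whereas the inhibitor acts in the whole body, so that the KHK treatments differ in the cells they reach as well as in what they do to KHK. No LFD group received either KHK treatment.

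Collagens are 3-chain proteins that give tissue its strength. Fibril-forming chains make up scar and vessel sheaths, collagen IV forms the sheet of basement membranes, and other families coat or link these structures. MMPs cut matrix proteins, TIMPs block them, and LOX enzymes cross-link collagen and elastin fibers. In the liver, fibrillar collagens come mainly from stellate cells and portal fibroblasts and build up in fibrosis, whereas endostatin, a fragment of collagen XVIII, derives from a chain that hepatocytes also make. In RNA from whole liver, fewer cells of a type and less RNA per cell cannot be told apart.

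Totals of expected counts were 25572883 to 35125005 per library in LFD, 24317111 to 35820234 in HFD, 28942052 to 33514313 with the siRNA and 27704386 to 32245606 with the inhibitor. Levels are given in CPM, counts scaled to a common library total, as mean ± SD of 4 libraries, and differences as log2 fold changes with their SE. The targeted gene checked the labels. Khk was at 266 ± 59.9 CPM in LFD and 264 ± 39.8 in HFD. It was at 11.8, 9.14, 18.1 and 11.5 CPM in the 4 HFD + siRNA libraries, which was 20.9-fold lower than in HFD (log2 fold change -4.38 ± 0.23, adjusted p = 1.88e-08). In HFD + Inhib it was at 112, 152, 94.6 and 120.5 CPM, also below every HFD library but only 2.21-fold lower (-1.14 ± 0.20, adjusted p = 0.000752).

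Of the 75 members, 5 had no count in any library (Col26a1, Col9a1, Mmp1a, Mmp1b and Mmp10), and 18 had counts but too few for the test. The test covered the remaining 52, which were 33 collagens, 12 MMPs, 2 TIMPs and all 5 LOX enzymes. Of these, 36 were above the minimum level of 0.338 CPM in all 16 libraries and 16 were not. Collagen XVIII dominated the sum. Col18a1 made up 60.2% of the members' summed CPM, and its level per kilobase of transcript averaged 174 CPM. The next levels per kilobase were 22.5 for Mmp19, 13.8 for Col14a1, 9.75 for Col4a1, 9.44 for Mmp14, 8.57 for Mmp15, 7.82 for Col5a3 and 7.31 for Col3a1. These follow one another closely after Mmp19, and their order was not tested. The members' summed level was 1866 ± 233 CPM in LFD, 1700 ± 134 in HFD, 1595 ± 148 with the siRNA and 1329 ± 40.3 with the inhibitor, and every HFD + Inhib library (1269 to 1354) lay below every library of the other groups (1411 to 2122). These sums were not corrected for GC content and transcript length. With such a correction, Col18a1 did not pass the test in HFD + Inhib against HFD (log2 fold change -0.12, adjusted p = 0.238).

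**Figure D1:**
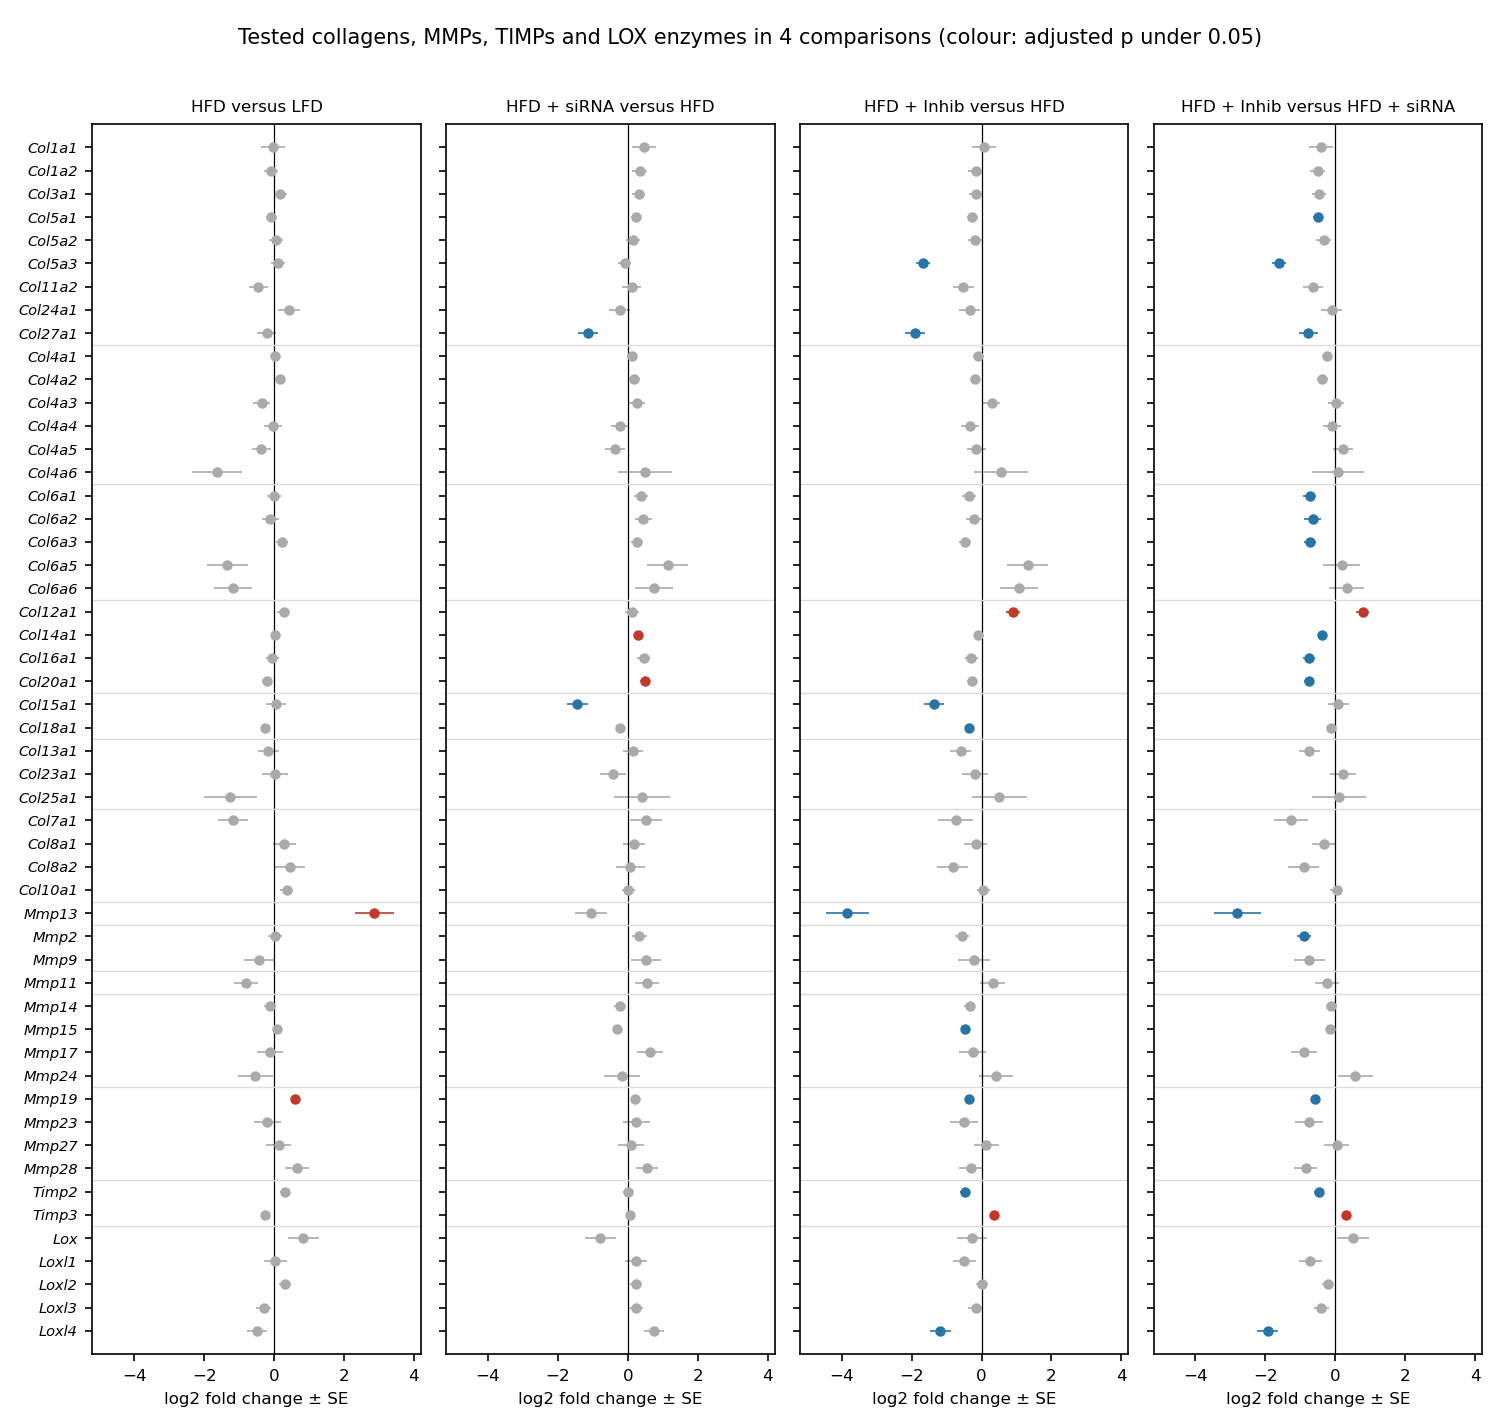
Log2 fold change ± SE (x axis) of the 52 tested members (y axis, grouped by family) in 4 comparisons, with red for higher and blue for lower at an adjusted p under 0.05 and grey for the rest. Colored points number 2 for the diet, 4 for the siRNA against HFD, 11 for the inhibitor against HFD and 16 for the inhibitor against the siRNA.

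Few of these genes passed the test for the diet. In HFD against LFD, 2 of 52 members passed the test (3.85%, against 18.4% of all 18335 genes tested, 9.58% higher and 8.8% lower), and both were higher and were proteases, Mmp13 and Mmp19. The median log2 fold change of the members was -0.03, and that of all genes was -0.01. Of the 33 collagens, 0 passed by edgeR and 0 by DESeq2, and 5 were lower and 0 higher at an unadjusted p under 0.05. Without LFD replicate 3, the number of members that passed was 4, and 10.8% of all genes passed in that fit. When GC content and length were corrected for, 6 members passed (5 higher and 1 lower), against 15.2% of all genes there.

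Mmp13, collagenase 3, cuts fibrillar collagen and is the main interstitial collagenase of rodents. Its counts were 2, 3, 0 and 5 in LFD, 18, 39, 9 and 17 in HFD, 14, 5, 10 and 10 in HFD + siRNA and 2, 0, 1 and 2 in HFD + Inhib. The HFD counts did not overlap those of LFD or HFD + Inhib, and they overlapped those of HFD + siRNA. Summed over libraries and scaled for depth, HFD had 7.93 times the LFD counts (95% counting interval 4.1 to 17.1) and 16.2 times the HFD + Inhib counts (6.68 to 51.3). The log2 fold change was 2.86 ± 0.56 in HFD against LFD (adjusted p = 0.00288), -3.84 ± 0.62 in HFD + Inhib against HFD (adjusted p = 0.000394) and -2.80 ± 0.67 in HFD + Inhib against HFD + siRNA (adjusted p = 0.0043). In HFD + siRNA against HFD it was -1.04 ± 0.46 and did not pass (adjusted p = 0.151). Mmp13 reached the minimum level in 4 HFD and 2 HFD + siRNA libraries and in no other, so it was tested only because it was high there, and these counts are small.

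The promoter of Mmp13 is shown because this collagenase has the largest fold change of the tested members in 3 of the 4 comparisons, all but HFD + siRNA against HFD. It is the RefSeq window of 250 bases before to 50 after the transcription start in GRCm38.p6, at chr9:7272264-7272563 on the plus strand, with capitals for matches to TGANTCA, the letters that AP-1 factors bind, and to TATAAA, the TATA box.
Mmp13: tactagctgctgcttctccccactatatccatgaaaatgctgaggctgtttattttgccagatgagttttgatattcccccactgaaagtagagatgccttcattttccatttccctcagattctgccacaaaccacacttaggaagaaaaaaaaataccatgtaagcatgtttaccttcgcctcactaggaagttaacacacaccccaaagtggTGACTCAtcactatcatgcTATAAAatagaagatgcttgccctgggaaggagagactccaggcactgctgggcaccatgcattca
TGANTCA starts 35 bases and TATAAA 16 bases before the listed start, without overlap. Searched on both strands, TGANTCA was in 12.9% of the 62 promoters found for 57 members and in 7.81% of all 32851 promoters, and TATAAA was in 22.6% and 13.6%. The gene lies at one end of a run of 10 neighboring Mmp genes on chromosome 9, of which 9 are members here (Mmp13, Mmp1b, Mmp3, Mmp1a, Mmp10, Mmp8, Mmp27, Mmp20 and Mmp7). Only Mmp13 and Mmp27 of these had enough counts for the test, and 3 had none. Mmp8, the neutrophil collagenase, had 0 to 5 counts per library.

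Mmp19, a protease that cuts basement membrane proteins, was the most abundant MMP. It was at 52.6, 59.98, 48.9 and 64.2 CPM in LFD, 82.1, 89.3, 85.2 and 83.3 in HFD, 110, 96.8, 91.3 and 96.6 in HFD + siRNA and 62.7, 78.1, 60.6 and 63.5 in HFD + Inhib. Every library on HFD or HFD + siRNA was above every LFD library and every HFD + Inhib library. Mmp19 rose 1.51-fold in HFD against LFD (0.59 ± 0.10, adjusted p = 0.00121). It was 1.28-fold lower in HFD + Inhib than in HFD (-0.36 ± 0.10, adjusted p = 0.0177) and 1.49-fold lower than in HFD + siRNA (-0.57 ± 0.10, adjusted p = 0.000398). Without HFD replicate 2, or without HFD + Inhib replicate 1, 3 or 4, the call against HFD was lost (adjusted p up to 0.0546). Opposite-strand genes overlap 28.3% of its exon bases, and whether the counting used strand is not given in the sources used here. Mmp13 and Mmp19 were thus the members higher in HFD and lower in HFD + Inhib, in comparisons that share the HFD libraries. Mmp13 entered the test only through HFD and HFD + siRNA libraries, where it was high, so its pattern is not independent of the filter.

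Against HFD, more members passed with the inhibitor than with the siRNA, and so did more of all genes (18.2% and 11.7%). In HFD + siRNA against HFD, 4 of 52 members passed (7.69%, against 11.7% of all genes, 5.2% higher and 6.55% lower), 2 higher and 2 lower, with a median log2 fold change of 0.22 against 0.02 over all genes. In HFD + Inhib against HFD, 11 passed (21.2%, against 18.2% of all genes), 2 higher and 9 lower, with a median of -0.26 against 0.00 (-0.00436) over all genes. Among all genes, 9.8% were higher and 8.42% lower in that comparison. In the direct comparison of the treatments, HFD + Inhib against HFD + siRNA, 16 members passed (30.8%, against 33.8% of all genes), 2 higher and 14 lower, where 17.3% of all genes were higher and 16.6% lower. The median was -0.39 against -0.04 over all genes. The comparisons with HFD share its 4 libraries. Leaving out HFD replicate 3 or 4, or HFD + siRNA replicate 1 or 3, lowered the siRNA count from 4 to 2. The share of all genes called fell too, to 5.89%, 7.12%, 7.66% and 7.45% in that order. In total, 19 tested members passed in at least 1 comparison and 33 in none.

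**Figure D2:**
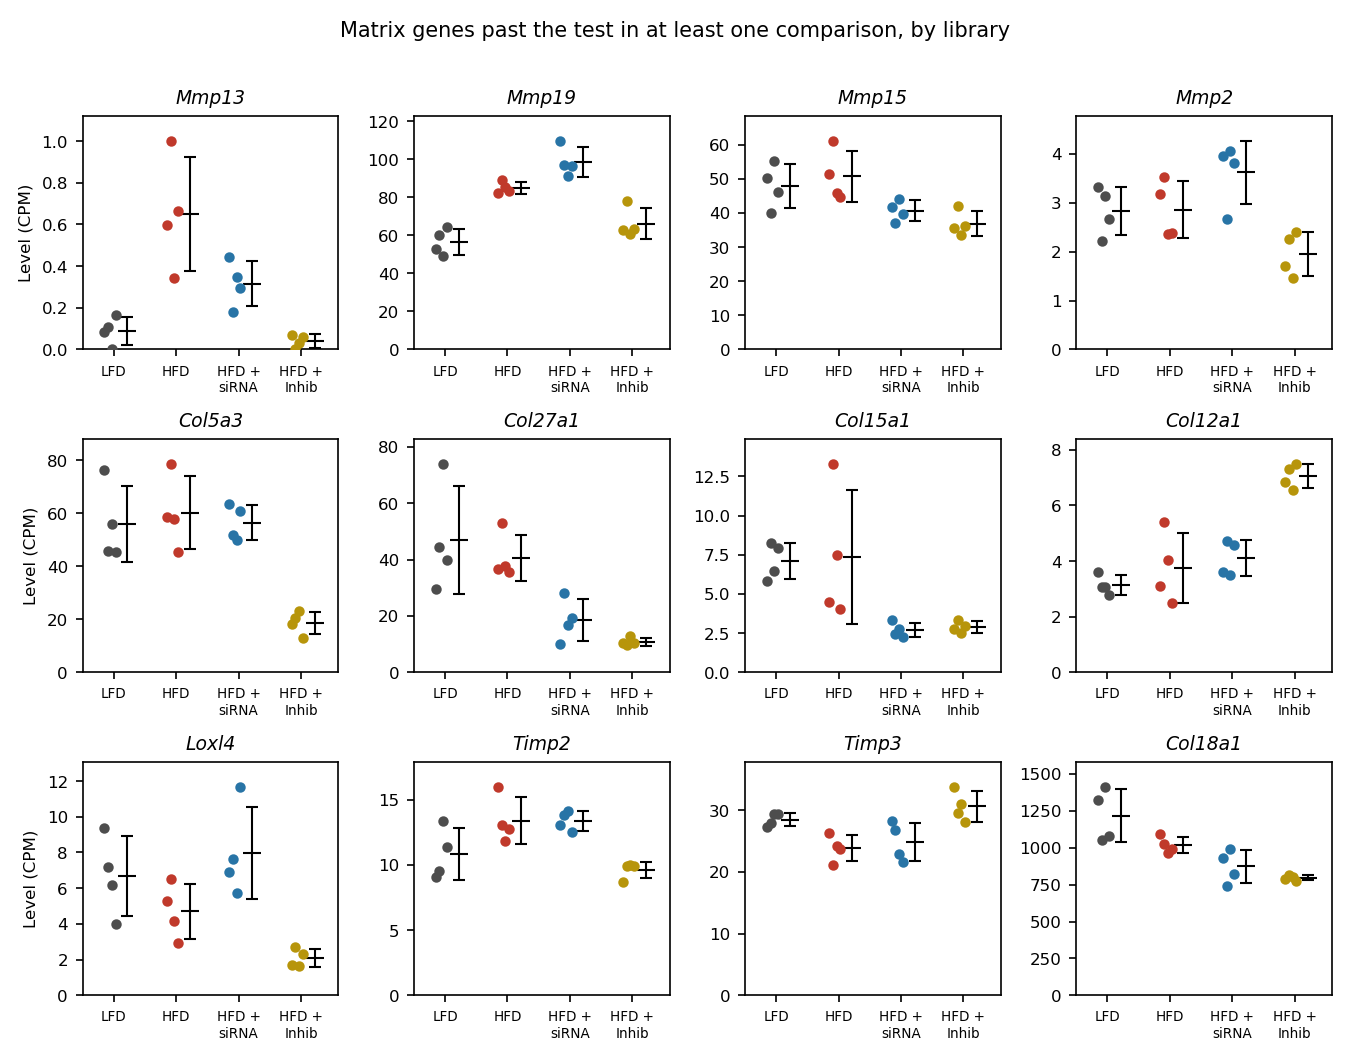
Level in CPM (y axis) of 12 members by group (x axis), with a point for each library and a bar for mean ± SD (n = 4). The HFD + Inhib points lie below all HFD points for Mmp13, Mmp19, Mmp15, Col5a3, Col27a1, Col15a1, Loxl4, Timp2 and Col18a1, and above them for Col12a1 and Timp3. The panels show members that passed the test in at least 1 comparison, so separate points partly follow from that choice. Such separation was not counted over all genes.

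Of 9 tested fibrillar chains, 2 passed in HFD + Inhib against HFD, Col5a3 and Col27a1, both lower (22.2%, against 18.2% of all genes). Col5a3, which encodes the third chain of collagen V, a regulator of fibril assembly, was at 76.2, 46.0, 56.1 and 45.4 CPM in LFD, 58.7, 78.8, 57.8 and 45.5 in HFD, 63.4, 52.0, 49.99 and 60.8 in HFD + siRNA and 18.2, 20.4, 23.2 and 13.1 in HFD + Inhib. The first 3 groups overlapped, and all HFD + Inhib libraries lay below them. Col5a3 was 3.22-fold lower in HFD + Inhib than in HFD (-1.69 ± 0.20, adjusted p = 2.26e-05) and 3.03-fold lower than in HFD + siRNA (-1.60 ± 0.20, adjusted p = 2.21e-05). Against HFD, the siRNA gave -0.09 ± 0.19 (adjusted p = 0.809).

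Col27a1, a fibrillar chain best known from cartilage, was lower with both treatments. It was at 29.5, 44.5, 74.0 and 39.7 CPM in LFD, 36.6, 52.9, 37.7 and 35.7 in HFD, 10.00, 28.2, 16.6 and 19.2 in HFD + siRNA and 10.3, 9.68, 13.0 and 10.4 in HFD + Inhib. Neither treated group overlapped HFD, but they overlapped each other. The fall was 2.21-fold with the siRNA (-1.14 ± 0.28, adjusted p = 0.0151) and 3.76-fold with the inhibitor (-1.91 ± 0.29, adjusted p = 0.000204). The direct comparison gave -0.77 ± 0.28 (adjusted p = 0.0446) and was lost with the correction for GC content and transcript length (-0.49, adjusted p = 0.263) and in 7 of the 8 fits that left out a library, all but the one without HFD + siRNA replicate 1 (adjusted p up to 0.186).

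The promoters of Col5a3 and Col27a1 are shown as those of the fibrillar chains that fell with the inhibitor. They are the RefSeq windows in GRCm38.p6 at chr9:20815018-20815317 (minus strand) and chr4:63215162-63215461 (plus strand), with capitals for CCAAT, the letters of the CCAAT box, and for GGGCGG, the GC box, on either strand.
Col5a3: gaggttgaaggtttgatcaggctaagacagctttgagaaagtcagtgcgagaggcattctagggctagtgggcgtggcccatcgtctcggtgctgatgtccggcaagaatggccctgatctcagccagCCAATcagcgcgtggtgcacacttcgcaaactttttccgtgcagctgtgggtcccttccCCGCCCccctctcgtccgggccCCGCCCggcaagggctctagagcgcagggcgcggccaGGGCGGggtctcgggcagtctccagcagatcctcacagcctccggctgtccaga
Col27a1: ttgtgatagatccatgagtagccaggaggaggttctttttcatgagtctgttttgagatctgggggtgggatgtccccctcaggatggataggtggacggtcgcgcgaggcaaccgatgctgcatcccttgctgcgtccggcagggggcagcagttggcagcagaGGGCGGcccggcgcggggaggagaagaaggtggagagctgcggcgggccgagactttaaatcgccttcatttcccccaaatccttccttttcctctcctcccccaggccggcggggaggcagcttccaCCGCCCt
Col5a3 holds CCAAT once and GGGCGG at 3 places, and Col27a1 holds GGGCGG at 2 places, with no overlap between matches. CCAAT was in 32.3% of member promoters and 37.4% of all promoters, and GGGCGG in 54.8% and 35.7%. Median GC content of the transcripts was 55.3% for the members and 49.8% for all genes tested.

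Col1a1, Col1a2 and Col3a1, the main fibrillar chains of scar tissue, did not pass the test in any comparison as reported, and Col1a2 and Col3a1 passed under some alternatives. Col1a1, of collagen I, was at 11.2, 7.09, 14.01 and 11.1 CPM in LFD, 12.9, 16.4, 6.87 and 5.90 in HFD, 20.5, 7.25, 19.4 and 11.3 in HFD + siRNA and 15.7, 10.7, 8.58 and 9.24 in HFD + Inhib. The 4 groups overlapped, and libraries of one group differed by up to 2.83-fold. Its log2 fold change was -0.04 ± 0.35 in HFD against LFD, 0.47 ± 0.35 in HFD + siRNA against HFD and 0.06 ± 0.35 in HFD + Inhib against HFD. Its partner chain Col1a2 gave -0.09 ± 0.20, 0.34 ± 0.20 and -0.17 ± 0.21 in the same order, and Col3a1, of collagen III, gave 0.18 ± 0.19, 0.31 ± 0.19 and -0.16 ± 0.19. In HFD + Inhib against HFD + siRNA the 3 genes gave -0.41 (adjusted p = 0.385), -0.51 (adjusted p = 0.0667) and -0.46 (adjusted p = 0.0708). There Col1a2 passed with the replicate number as a block (adjusted p = 0.0471), and both Col1a2 and Col3a1 passed in the fit of the 2 compared groups (adjusted p = 0.0461 and 0.0488) and without HFD + siRNA replicate 2 (0.0329 and 0.0317), while the correction for GC content and transcript length gave -0.26 and -0.32 (adjusted p = 0.26 and 0.197). Col3a1 also passed in HFD + siRNA against HFD without HFD replicate 2 (0.55, adjusted p = 0.0425). In HFD + Inhib against HFD + siRNA, all 9 tested fibrillar chains had a negative log2 fold change (-1.60 to -0.11), and 3 passed (Col5a3, Col27a1 and Col5a1), a share of 33.3% against 33.8% of all genes. Col5a1, the main chain of collagen V, was at 13.5 ± 1.51 CPM with the inhibitor and 19.0 ± 3.43 with the siRNA (-0.50 ± 0.15, adjusted p = 0.0184), and its call was lost with the GC and length correction (-0.19, adjusted p = 0.181) and without HFD + siRNA replicate 1 or 3 or HFD + Inhib replicate 4 (adjusted p up to 0.0733). Col5a2 was at 3.47 ± 0.53 and 4.36 ± 1.15 CPM in these groups and did not pass (adjusted p = 0.242).

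**Figure D3:**
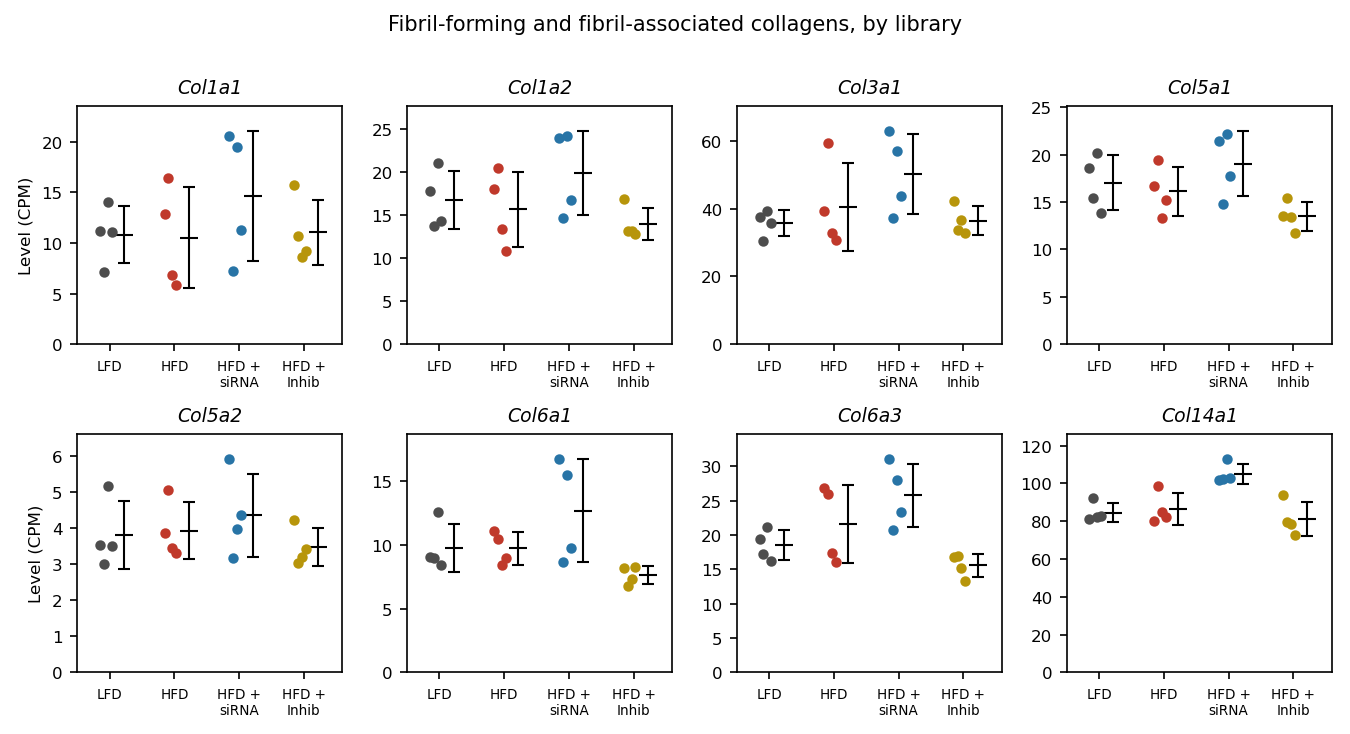
Level in CPM (y axis) of 8 fibril-forming, microfibrillar and fibril-associated collagen chains by group (x axis), with a point for each library and a bar for mean ± SD (n = 4). The groups overlap for Col1a1, Col1a2, Col3a1, Col5a1 and Col5a2, and the HFD + siRNA points lie above all HFD + Inhib points for Col6a1, Col6a3 and Col14a1.

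Of the 5 tested chains of collagen VI, a beaded microfibril, 3 were lower in HFD + Inhib than in HFD + siRNA (Col6a1, Col6a2 and Col6a3), in a comparison in which 33.8% of all genes were called. The other 2, Col6a5 and Col6a6, had 1 to 38 counts per library and did not pass in any comparison as reported, with log2 fold changes of 0.18 ± 0.54 and 0.32 ± 0.51 there and 1.32 ± 0.59 and 1.07 ± 0.54 in HFD + Inhib against HFD. Col6a3 was at 31.0, 20.6, 27.9 and 23.4 CPM in HFD + siRNA and 16.8, 16.9, 15.2 and 13.3 in HFD + Inhib, with no overlap (-0.73 ± 0.17, adjusted p = 0.00347). Col6a1 was 1.66-fold lower (-0.73 ± 0.19, adjusted p = 0.00803) and Col6a2 1.57-fold lower (-0.65 ± 0.24, adjusted p = 0.0427) with the inhibitor than with the siRNA. Against HFD, none of Col6a1, Col6a2 and Col6a3 passed with either treatment as reported, and their log2 fold changes were 0.25 to 0.45 with the siRNA and -0.47 to -0.20 with the inhibitor. Col6a3 with the inhibitor (adjusted p = 0.0613) passed by DESeq2 (0.0412), with the replicate block (0.0385) and without HFD replicate 3 (0.038) or 4 (0.0216). The call for Col6a2 was lost with the correction (adjusted p = 0.163) and in 6 of the 8 fits that left out a library, all but those without HFD + siRNA replicate 2 or 4 (adjusted p up to 0.17).

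Of the 4 tested fibril-associated collagens (FACIT), which sit on the surface of fibrils, 2 passed in HFD + siRNA against HFD, both higher, and 1 in HFD + Inhib against HFD, higher (11.7% and 18.2% of all genes were called). Between the treatments, 1 was higher and 3 were lower in HFD + Inhib than in HFD + siRNA, where 33.8% of all genes were called. Col12a1, known from tendon and from loaded tissue, was at 3.605, 3.08, 3.08 and 2.77 CPM in LFD, 3.12, 5.39, 4.02 and 2.50 in HFD, 3.61, 4.73, 3.49 and 4.57 in HFD + siRNA and 6.86, 7.30, 6.54 and 7.496 in HFD + Inhib. All HFD + Inhib libraries were above all others. Col12a1 rose 1.86-fold in HFD + Inhib against HFD (0.90 ± 0.19, adjusted p = 0.00338) and was 1.72-fold higher than in HFD + siRNA (0.78 ± 0.19, adjusted p = 0.00466). Col14a1, undulin, had 102, 102, 113 and 103 CPM in HFD + siRNA against 80.1, 98.6, 84.97 and 82.1 in HFD. This 1.22-fold difference lay at the threshold (0.28 ± 0.09, adjusted p = 0.0499) and passed in only 2 of 15 other settings, DESeq2 and the fit without HFD replicate 2. Col20a1, a FACIT chain of low level, was at 3.94 ± 0.33 CPM with the siRNA and 2.80 ± 0.36 in HFD (0.50 ± 0.14, adjusted p = 0.0289), a call lost with the correction for GC content and length (adjusted p = 0.0839) and in 6 of the 8 fits that left out a library, all but those without HFD replicate 1 or HFD + siRNA replicate 2 (adjusted p up to 0.0991). In HFD + Inhib against HFD + siRNA both were lower, Col14a1 by 1.29-fold (-0.37 ± 0.09, adjusted p = 0.0044) and Col20a1 by 1.70-fold (-0.77 ± 0.14, adjusted p = 0.000615). Col16a1, another FACIT chain, which was named after its values were seen, was also lower there (-0.75 ± 0.18, adjusted p = 0.00472).

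The multiplexins, collagens XV and XVIII, link basement membranes to the matrix around them. Both were called lower in HFD + Inhib than in HFD, where 8.42% of all genes were lower, and the call for Col18a1 was lost under several alternatives. Col15a1 was at 5.83, 8.24, 6.45 and 7.94 CPM in LFD, 4.51, 13.3, 7.51 and 4.03 in HFD, 3.32, 2.44, 2.79 and 2.28 in HFD + siRNA and 2.76, 3.34, 2.49 and 2.97 in HFD + Inhib. Both treated groups lay below all HFD and LFD libraries. The fall was 2.72-fold with the siRNA (-1.44 ± 0.29, adjusted p = 0.00579) and 2.56-fold with the inhibitor (-1.35 ± 0.29, adjusted p = 0.00405), and the treatments differed by 0.09 ± 0.30 (adjusted p = 0.837). HFD replicate 2 was above the other HFD libraries at 13.3 CPM, and over the fits that left out a library and the other settings the log2 fold change ranged from -1.66 to -0.98 with the siRNA and from -1.56 to -0.89 with the inhibitor, with every call kept.

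Col18a1, the source of endostatin, was at 1325, 1053, 1414 and 1080 CPM in LFD, 1092, 1024, 962 and 993 in HFD, 933, 741, 993 and 824 in HFD + siRNA and 791, 816, 804 and 775 in HFD + Inhib. The inhibitor libraries were below all HFD libraries, and the siRNA libraries overlapped both groups. Its fall with the inhibitor was 1.28-fold (-0.35 ± 0.11, adjusted p = 0.0368). This rests on the processing, since the correction for GC content and length gave -0.12 (adjusted p = 0.238) and 7 of the 8 fits that left out a library lost the call, all but the one without HFD replicate 3 (adjusted p up to 0.103). With that correction the siRNA call appeared instead (-0.33, adjusted p = 0.00716, against -0.22 and 0.216 as counted), and HFD + Inhib against HFD + siRNA turned from -0.13 (adjusted p = 0.384) to 0.21 (adjusted p = 0.0307).

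Collagen IV, the sheet of basement membranes, gave 0 calls among its 6 chains in each comparison by edgeR and by DESeq2, where 18.4%, 11.7%, 18.2% and 33.8% of all genes were called (1 chain lower at an unadjusted p under 0.05 in HFD against LFD and 1 in HFD + Inhib against HFD + siRNA). In that last comparison Col4a2 passed in the edgeR fit of the 2 compared groups (-0.36, adjusted p = 0.0359, against -0.37 and 0.0697 as reported). Col4a1 was at 82.0, 56.6, 62.2 and 52.0 CPM in LFD, 60.1, 85.6, 56.3 and 56.3 in HFD, 67.4, 69.6, 69.9 and 73.9 in HFD + siRNA and 65.4, 55.8, 63.3 and 55.8 in HFD + Inhib. Its partner Col4a2 was high and low in the same libraries, so that the ratio of the chains kept to 1.32 to 1.71 (median 1.46) over 16 libraries, whereas each chain by itself spanned 1.65-fold and 1.81-fold. The ratio of Col1a1 to Col1a2 spanned 1.89-fold, from 0.494 to 0.933, and those chains by themselves spanned 3.48-fold and 2.23-fold. For Col4a3 and Col4a4, also of collagen IV, the ratio spanned 3.17-fold and the chains 2.05-fold and 2.26-fold. Whether a shared promoter bears on these ratios was not tested. Col4a1 and Col4a2 are read in opposite directions from starts only 21 bases apart. Their RefSeq promoter windows are shown because they share sequence, 78 bases printed in capitals on both, in GRCm38.p6 at chr8:11312777-11313076 (minus strand) and chr8:11312555-11312854 (plus strand).
Col4a1: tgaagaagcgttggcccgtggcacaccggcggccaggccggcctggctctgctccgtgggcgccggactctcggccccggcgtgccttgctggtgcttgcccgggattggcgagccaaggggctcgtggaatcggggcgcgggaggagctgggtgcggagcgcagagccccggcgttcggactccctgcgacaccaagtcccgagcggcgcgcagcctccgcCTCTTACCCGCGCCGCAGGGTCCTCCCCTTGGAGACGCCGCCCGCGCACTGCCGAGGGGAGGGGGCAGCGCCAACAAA
Col4a2: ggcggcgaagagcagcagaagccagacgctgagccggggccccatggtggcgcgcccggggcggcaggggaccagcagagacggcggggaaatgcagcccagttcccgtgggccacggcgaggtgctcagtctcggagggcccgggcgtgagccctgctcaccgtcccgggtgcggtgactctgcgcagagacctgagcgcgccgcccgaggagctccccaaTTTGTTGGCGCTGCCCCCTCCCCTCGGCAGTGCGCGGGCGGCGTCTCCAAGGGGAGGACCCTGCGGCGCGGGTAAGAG
The capitals of Col4a1 are the reverse complement of those of Col4a2. Other members also neighbor each other on their chromosomes, such as Col3a1 and Col5a2, Col4a3 and Col4a4, Col6a1 and Col6a2, and Col4a5 and Col4a6.

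Among the other MMPs, the gelatinase Mmp2, which cuts denatured collagen and collagen IV, was at 3.95, 2.66, 4.05 and 3.81 CPM in HFD + siRNA and 1.70, 2.25, 1.46 and 2.40 in HFD + Inhib, without overlap (-0.89 ± 0.21, adjusted p = 0.00354). Against HFD (2.86 ± 0.58 CPM) neither treatment passed (0.33 ± 0.20 with the siRNA and -0.56 ± 0.21 with the inhibitor). Mmp9, the other gelatinase, was at 0.46 to 0.76 CPM on average in the 4 groups and passed in no comparison as reported, but was lower in HFD + Inhib than in HFD + siRNA without HFD + Inhib replicate 2 (-1.24, adjusted p = 0.04). Mmp15, a membrane-type MMP, was at 51.4, 61.1, 45.9 and 44.6 CPM in HFD and 35.6, 42.0, 33.5 and 36.2 in HFD + Inhib, a 1.38-fold fall with no overlap (-0.46 ± 0.12, adjusted p = 0.0104). With the siRNA it was at 40.6 ± 3.04 CPM (-0.32 ± 0.12, adjusted p = 0.0799), which passed by DESeq2 (adjusted p = 0.0498) and with the correction for GC content and transcript length (adjusted p = 0.00346). Mmp14, the membrane-type MMP that activates Mmp2, was at 32.8 ± 5.30 CPM in HFD and 25.9 ± 5.53 in HFD + Inhib and did not pass (adjusted p = 0.167), except without HFD + Inhib replicate 3 (-0.50, adjusted p = 0.0392).

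Of the 2 tested TIMPs, Timp3 was called higher and Timp2 lower with the inhibitor, both against HFD and against HFD + siRNA (18.2% and 33.8% of all genes called). Timp2 was at 9.10, 9.53, 13.4 and 11.4 CPM in LFD, 16.01, 13.1, 11.8 and 12.7 in HFD, 13.0, 13.8, 14.1 and 12.5 in HFD + siRNA and 8.66, 9.95, 9.97 and 9.89 in HFD + Inhib. It fell 1.39-fold in HFD + Inhib against HFD (-0.48 ± 0.12, adjusted p = 0.0116) and was as much lower than in HFD + siRNA (-0.48 ± 0.12, adjusted p = 0.00707). The call against HFD + siRNA was lost with the correction for GC content and length (adjusted p = 0.0748). In HFD against LFD, Timp2 passed only with that correction (0.42, adjusted p = 0.0262) and without LFD replicate 3 (0.43, adjusted p = 0.0276). Timp3, the TIMP that is bound to the matrix, was at 26.3, 21.2, 24.1 and 23.7 CPM in HFD and 33.8, 29.6, 31.0 and 28.0 in HFD + Inhib, and rose 1.28-fold (0.36 ± 0.10, adjusted p = 0.0145). The Timp3 groups did not overlap, but the call was lost without HFD replicate 2 or HFD + Inhib replicate 1 (adjusted p up to 0.0525), and Syn3 on the opposite strand overlaps 21.3% of its exon bases. Against HFD + siRNA the difference was 0.30 ± 0.10 (adjusted p = 0.0232), which was lost with the correction (adjusted p = 0.129) and without HFD + siRNA replicate 3 or 4 or HFD + Inhib replicate 1 (adjusted p up to 0.0698). Timp1, the TIMP best known as a fibrosis marker, had too few counts for the test, with 2, 14, 4 and 1 in HFD and 0 to 14 in any library, and Timp4 had 0 to 4.

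Of the LOX enzymes, Loxl4 was at 9.39, 7.17, 6.18 and 3.99 CPM in LFD, 5.27, 6.499, 4.14 and 2.93 in HFD, 6.93, 7.61, 5.76 and 11.7 in HFD + siRNA and 1.70, 2.68, 1.65 and 2.34 in HFD + Inhib. The HFD + Inhib libraries were below all others. Loxl4 fell 2.27-fold against HFD (-1.18 ± 0.30, adjusted p = 0.0108) and was 3.83-fold lower than in HFD + siRNA (-1.94 ± 0.30, adjusted p = 0.000144). The siRNA gave 0.76 ± 0.28 against HFD (adjusted p = 0.0895). Lox (0.28 to 0.52 CPM on average in the 4 groups), Loxl1 (1.38 to 2.27), Loxl2 (3.29 to 4.76) and Loxl3 (1.59 to 2.20) did not pass in any comparison as reported. Lox passed in HFD against LFD without LFD replicate 3 (1.53, adjusted p = 0.0356), and Loxl1 in HFD + Inhib against HFD + siRNA in the fit of the 2 compared groups (-0.71, adjusted p = 0.0333). Of the 50-base stretches of Loxl2, 45.8% occur in other genes too, so its counts could be split or borrowed.

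The correction for GC content and transcript length changed the balance of calls. Over 8342 well-expressed genes, the log2 fold change followed GC content, with a Spearman coefficient of -0.53 in HFD against LFD, 0.51 in HFD + siRNA against HFD, -0.27 in HFD + Inhib against HFD and -0.53 in HFD + Inhib against HFD + siRNA. With the correction the members had 5 higher and 1 lower in HFD against LFD in place of 2 higher, since Col6a3, Mmp15 and Timp2 (higher) and Timp3 (lower) joined Mmp13 and Mmp19. Of all 15858 genes in that fit, 15.2% were called, against 18.4% as counted. In HFD + siRNA against HFD they had 4, all lower, in place of 2 higher and 2 lower, with Col18a1 and Mmp15 joining Col15a1 and Col27a1. There 9% of all genes were called, against 11.7% as counted. With the inhibitor there were 2 higher and 8 lower in place of 2 and 9, and against the siRNA 2 higher and 10 lower in place of 2 and 14. The shares of all genes called in these fits were 20.9% and 28.4%, against 18.2% and 33.8% as counted. The 2 higher against the siRNA were Col12a1 and Timp3 as counted and Col12a1 and Col18a1 with the correction. The members' medians became 0.12, 0.14, -0.12 and -0.27 in the order of the comparisons above. Over all genes the medians with the correction were 0.02, -0.01, -0.04 and -0.03.

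**Figure D4:**
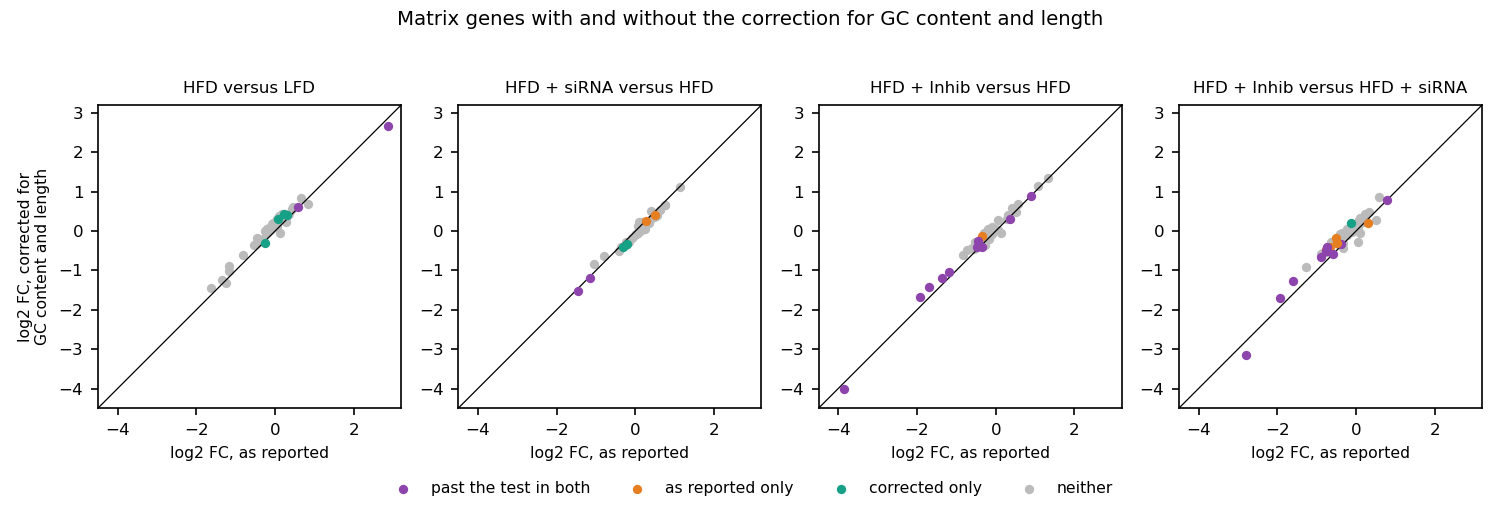
Log2 fold change of the 52 tested members as counted (x axis) and with the correction for GC content and transcript length (y axis) in 4 comparisons, with color for an adjusted p under 0.05 in both fits, in one of them or in neither. Points near the diagonal barely moved, and the members that pass in both include Mmp13, Col5a3, Col15a1, Col27a1, Col12a1 and Loxl4.

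Genes that work with these members were followed in 4 lists, whose shares of calls are read against the 18.4%, 11.7%, 18.2% and 33.8% of all genes called in the 4 comparisons. Enzymes and carriers that modify, fold and export collagen gave 1 higher and 3 lower of 28 in HFD against LFD (median -0.08), 2 with the siRNA, both higher (0.19), 3 with the inhibitor, all lower (-0.02), and 1 higher and 9 lower in HFD + Inhib against HFD + siRNA (-0.28). Ppib, cyclophilin B, which folds collagen chains, was at 139 ± 3.27 CPM in LFD, 110 ± 9.62 in HFD, 137 ± 8.42 with the siRNA and 79.0 ± 7.46 with the inhibitor. It was called lower in HFD (-0.34, adjusted p = 0.0111), higher with the siRNA (0.32, adjusted p = 0.0209) and lower with the inhibitor (-0.47, adjusted p = 0.00087). The correction for GC content and transcript length ended the first (-0.13, adjusted p = 0.192) and the second of these (0.05, adjusted p = 0.685), and the second was also lost without HFD replicate 3 or 4 or HFD + siRNA replicate 2, 3 or 4 (adjusted p up to 0.0893). P3h1, a prolyl hydroxylase of collagen, fell with the inhibitor (-0.60, adjusted p = 0.0205), a call lost without HFD replicate 2 or HFD + Inhib replicate 1 (adjusted p up to 0.0861). The shares called in this list were 14.3%, 7.14%, 10.7% and 35.7%. Its siRNA count was at most 1 without HFD replicate 1, 3 or 4 or HFD + siRNA replicate 2, 3 or 4, and without HFD replicate 2 or HFD + Inhib replicate 1 its inhibitor count was 1. With the correction its count for the diet was 2.

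Of 37 other matrix proteins, 5 passed in HFD against LFD, all lower (median -0.09), 1 with the siRNA, higher (0.16), 6 with the inhibitor, all lower (-0.21), and 13, all lower, in HFD + Inhib against HFD + siRNA (-0.39). These were 13.5%, 2.7%, 16.2% and 35.1% of the list. The count for the diet was 2 without LFD replicate 3 or HFD replicate 3 or 4, 3 without LFD replicate 1 and in the fit of the 2 compared groups, and none passed at an adjusted p under 0.01. The count with the inhibitor was 10 with the correction. Fibronectin, Fn1, was at 2819 ± 161 CPM in HFD, 2717 ± 149 with the siRNA and 1603 ± 204 with the inhibitor (-0.81 against HFD, adjusted p = 6.46e-05). Vitronectin, Vtn, was at 1857 ± 237 CPM in LFD, 1304 ± 110 in HFD, 1807 ± 164 with the siRNA and 895 ± 136 with the inhibitor, and passed in all 4 comparisons. The Vtn call with the siRNA, the one call of the list there, was lost without HFD replicate 3 or 4 or HFD + siRNA replicate 1, 3 or 4 (adjusted p up to 0.0766). Hepatocytes make both of these plasma proteins. Agrn, a heparan sulfate proteoglycan, also fell with the inhibitor (-0.72, adjusted p = 0.000111), and Nid2, a basement membrane linker, was lower in HFD than in LFD (-0.92, adjusted p = 0.01).

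Of 31 genes of TGF-β and PDGF signaling, which drive matrix production, 4 rose and 1 fell in HFD against LFD (median 0.00, -0.00176), 3 passed with the siRNA, all lower (0.04), 2 rose and 9 fell with the inhibitor (-0.28), and 4 were higher and 9 lower in HFD + Inhib against HFD + siRNA (-0.32). These were 16.1%, 9.68%, 35.5% and 41.9% of the list. The count of 5 for the diet was 3 without LFD replicate 3 or HFD replicate 3 and 8 by DESeq2, the count of 3 with the siRNA was 1 without HFD replicate 3 or HFD + siRNA replicate 4, and the count of 11 with the inhibitor was 7 without HFD replicate 1 or 2 or HFD + Inhib replicate 2. Inhba, the activin A subunit, fell with the siRNA from 26.7 ± 6.46 to 12.01 ± 4.12 CPM (-1.16, adjusted p = 0.00739) and with the inhibitor to 6.27 ± 1.48 (-2.09, adjusted p = 3.26e-05). Pdgfc, a PDGF ligand, fell with the inhibitor (-0.97, adjusted p = 0.0341), a call lost without HFD replicate 1 or 2 or HFD + Inhib replicate 1, 2 or 4 (adjusted p up to 0.101). Genes of this list that rose with the diet or with the inhibitor are not named here.

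Of 25 ADAM and ADAMTS proteases, cathepsins and inhibitors, 1 rose and 1 fell in HFD against LFD (median 0.14), 2 rose and 1 fell with the siRNA (-0.15), 1 rose and 4 fell with the inhibitor (-0.31), and 3 were higher and 8 lower in HFD + Inhib against HFD + siRNA (-0.23). These were 8%, 12%, 20% and 44% of the list. The count of 2 for the diet was 5 by DESeq2, 1 without LFD replicate 1 or HFD replicate 3 and 1 with the correction, and the count of 5 with the inhibitor was 3 without HFD replicate 1, 2 or 3 or HFD + Inhib replicate 1 or 4. Adamts15, a protease that cuts versican and aggrecan, rose with the inhibitor from 1.11 ± 0.20 to 6.19 ± 1.35 CPM (2.46, adjusted p = 1.54e-06), and Adamts7 fell from 11.8 ± 2.24 to 3.86 ± 0.92 (-1.61, adjusted p = 0.000503). Serpine2, protease nexin 1, rose with the siRNA (1.16, adjusted p = 0.0109).

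The 13 stellate cell markers summed to 346 ± 13.7 CPM in LFD, 436 ± 33.7 in HFD, 460 ± 13.7 with the siRNA and 337 ± 29.5 with the inhibitor, with no overlap between HFD + Inhib (303 to 368) and HFD (400 to 480). Of them, 2 rose in HFD against LFD (Hgf and Reln, 15.4% against 18.4% of all genes), and 4 fell with the inhibitor (Reln, Hgf, Pdgfrb and Colec11, 30.8% against 18.2% of all genes), with 0 calls with the siRNA by edgeR (1 lower at an unadjusted p under 0.05) and by DESeq2, and 1 call there without HFD + siRNA replicate 2 and in the fit of the 2 compared groups. The count with the inhibitor was 2 without HFD replicate 1 or HFD + Inhib replicate 4, and the Reln call for the diet was lost without HFD replicate 1 (adjusted p = 0.0544). The Pdgfrb call with the inhibitor was lost with the correction (-0.315, adjusted p = 0.0523). It was also lost without HFD replicate 1 (0.0603) or HFD + Inhib replicate 4 (0.0548). In HFD + Inhib against HFD + siRNA, where 16 members passed, 5 stellate cell markers passed, all lower (Ngfr, Reln, Lhx2, Colec11 and Pdgfrb, 38.5%), 6 of 14 macrophage markers were lower and 1 higher (50% together), and 5 of 9 hepatocyte markers were lower and 1 higher (66.7%), against 33.8% of all genes. The Lhx2 call was lost without any 1 of the HFD + siRNA or HFD + Inhib libraries (adjusted p up to 0.106). It was also lost without the filter on low counts (0.0534) and with the correction (-0.41, adjusted p = 0.217). Reln, the most abundant stellate cell marker, was at 208 ± 22.4 CPM in HFD and 132 ± 4.64 in HFD + Inhib (-0.66, adjusted p = 0.000251). Reln alone made up 45.8% of the stellate cell sum over all libraries, so the sum follows this gene closely. Of the other defining markers, Lrat was at 23.6 ± 8.01 and 31.0 ± 11.2 CPM and Hand2 at 5.56 ± 1.41 and 4.16 ± 0.56, and neither passed. In HFD + Inhib against HFD, 9 of the 13 markers had a negative log2 fold change and 4 a positive one. The part of stellate cells in the lower levels of Col5a3, Mmp2, Timp2 and the other members with the inhibitor was not tested.

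**Figure D5:**
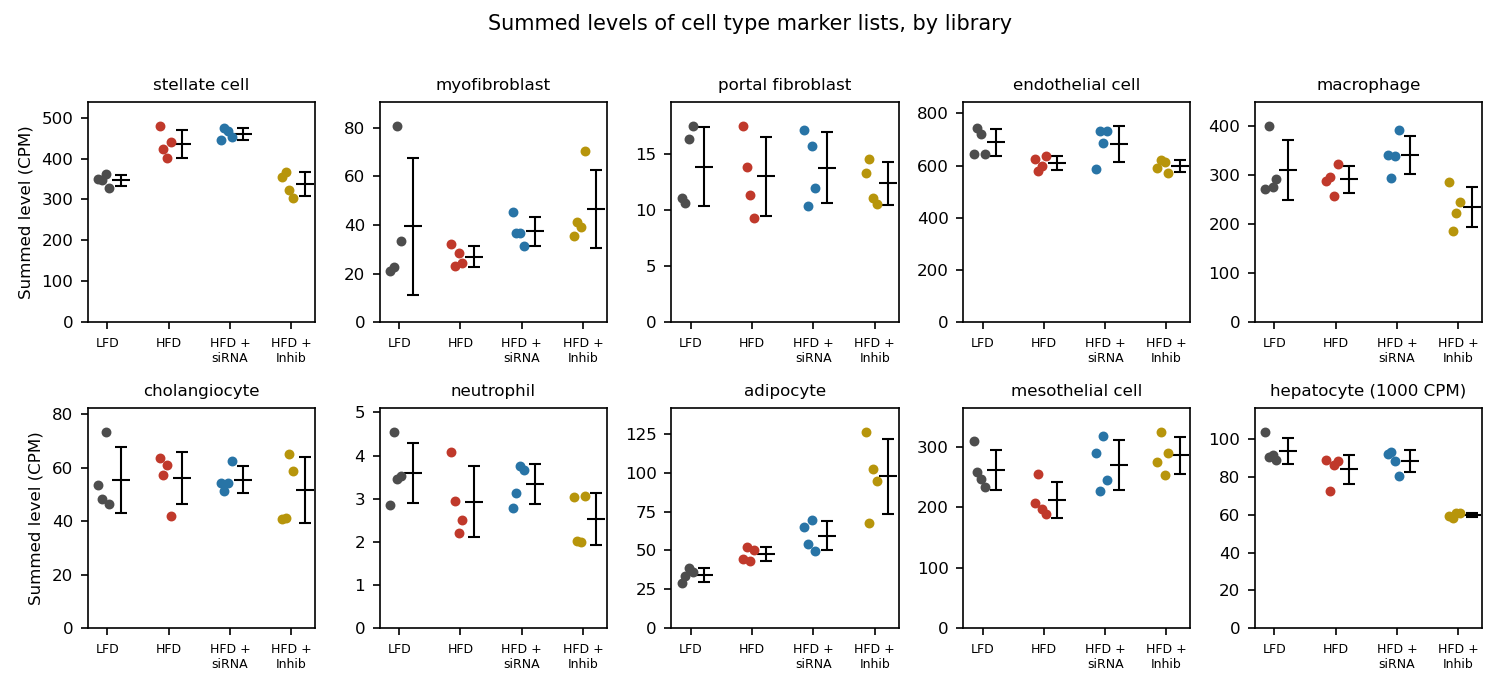
Summed level in CPM (y axis, with its unit at each panel) of 10 lists of cell type markers by group (x axis), with a point for each library and a bar for mean ± SD (n = 4). Stellate cell, macrophage, hepatocyte, endothelial cell, portal fibroblast, cholangiocyte and neutrophil sums are all lowest on average in HFD + Inhib. LFD replicate 3 and HFD + Inhib replicate 4 are high in the myofibroblast sum.

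Of 9 myofibroblast and smooth muscle markers, 1 passed in HFD against LFD, lower (Myh11), and 1 with the inhibitor, higher (Tpm2, the most abundant). Each was 11.1% of the list, against 18.4% and 18.2% of all genes. The Myh11 call (-1.70, adjusted p = 0.0472) was lost with the replicate block (adjusted p = 0.0812), with the correction, in the fit of the 2 compared groups and without LFD replicate 3 (-0.71, adjusted p = 0.335) or HFD replicate 2, 3 or 4, while the list's count was 3 without LFD replicate 1 or 2 and 4 by DESeq2. Tpm2 passed for the diet in the opposite direction, as higher, with the replicate block (0.97, adjusted p = 0.0222), by DESeq2 (0.88, adjusted p = 0.0232), with the correction (1.03, adjusted p = 0.038) and without LFD replicate 3 (1.18, adjusted p = 0.0254). Their sum was 23.1 to 32.2 CPM in HFD and 35.4 to 70.3 in HFD + Inhib, where replicate 4 was the highest, and LFD replicate 3 reached 80.8. Acta2, their defining gene, was at 1.51 ± 0.57 CPM in HFD and 2.78 ± 2.51 in HFD + Inhib, Tagln at 3.05 ± 0.53 and 3.91 ± 1.77, and Cnn1 at 0.15 ± 0.07 and 0.45 ± 0.67, and none passed. Of 7 portal fibroblast markers, 1 was called lower in HFD (Cd34, lost without LFD replicate 3 or 4 or HFD replicate 2, 3 or 4, adjusted p up to 0.0924), and 0 passed with either treatment by edgeR (1 lower at an unadjusted p under 0.05 with the inhibitor, 0 with the siRNA) and by DESeq2. The diet call was 14.3% of the list, against 18.4% of all genes. With the siRNA 11.7% and with the inhibitor 18.2% of all genes were called. Their sum was 13.0 ± 3.53 CPM in HFD and 12.4 ± 1.90 in HFD + Inhib, with Dpt the most abundant.

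Endothelial markers summed to 610 ± 26.1 CPM in HFD and 599 ± 23.1 in HFD + Inhib, and of 12 only Lyve1 passed there, higher with the inhibitor (0.86, adjusted p = 0.031), a call lost without any 1 of the HFD libraries or without HFD + Inhib replicate 1 or 3 (adjusted p up to 0.119). This was 8.33% of the list, against 18.2% of all genes. The Lyve1 call was also lost with the correction for GC content and transcript length (0.75, adjusted p = 0.0605). Macrophage markers summed to 291 ± 27.0 and 235 ± 41.2 CPM, and of 14 the inhibitor lowered 3 (Trem2, Cd5l and Clec4f) and raised 1 (Cd9, 28.6% together against 18.2% of all genes), while in HFD against LFD 2 passed as higher (Gpnmb and Ccr2) and 1 as lower (Cd9, 21.4% together against 18.4%). The count of 3 for the diet was 1 without LFD replicate 1 or 3 or HFD replicate 1 or 2 and in the fit of the 2 compared groups, and the count of 4 with the inhibitor was 2 without HFD replicate 2 or 4 or HFD + Inhib replicate 3 or 4. The Gpnmb call for the diet was lost with the replicate block (adjusted p = 0.0821) and with the correction (adjusted p = 0.0508). The Ccr2 call for the diet was lost with the correction (adjusted p = 0.155). Clec4f, the Kupffer cell lectin and the most abundant, fell from 76.1 ± 7.30 to 53.4 ± 7.93 CPM (-0.51, adjusted p = 0.00756). Trem2 and Cd5l lost their calls with the inhibitor in several fits. For Trem2 these left out HFD replicate 1, 2 or 4 or HFD + Inhib replicate 2, 3 or 4 (adjusted p up to 0.179). It was also lost without the filter (0.0526) and in the fit of the 2 compared groups (0.0524). For Cd5l they left out HFD replicate 2 or 4 or HFD + Inhib replicate 2, 3 or 4 (adjusted p up to 0.0858). Cholangiocyte markers summed to 56.1 ± 9.74 and 51.7 ± 12.4 CPM with 0 of 8 passing with the inhibitor by edgeR (0 at an unadjusted p under 0.05) and by DESeq2, although Spp1 passed there as lower with the correction (-0.55, adjusted p = 0.0382) and without HFD replicate 4 (-0.52, adjusted p = 0.0462). Neutrophil markers, the source of Mmp8, summed to 2.93 ± 0.82 and 2.53 ± 0.60 CPM, with 1 call without HFD + Inhib replicate 1, and Ly6g was at or near 0. Adipocyte markers summed to 43.5 to 52.1 CPM in HFD and 67.3 to 126 in HFD + Inhib, with Cfd, Lipe and Plin4 of the 4 tested higher (75% against 18.2% of all genes, and 1 call in the list without HFD + Inhib replicate 1 or 4), while the defining markers Adipoq, Lep and Plin1 were at or under 0.14 CPM on average in both groups. Mesothelial markers summed to 212 ± 29.2 and 285 ± 30.0 CPM, most of it the keratins Krt8 and Krt18, which were the 2 of 7 called, higher with the inhibitor (28.6% against 18.2% of all genes, adjusted p = 0.0474 and 0.0132, both lost without HFD + Inhib replicate 2, and Krt8 also without HFD replicate 1, 3 or 4 or HFD + Inhib replicate 1 or 4) and which hepatocytes also make, and Msln was at 0.75 ± 0.19 and 0.51 ± 0.39. The Krt8 call was also lost with the replicate block (adjusted p = 0.0604) and without the filter on low counts (adjusted p = 0.053). Hepatocyte markers summed to 84010 ± 7750 and 59860 ± 1250 CPM, of which Alb alone made up 58.7% over all libraries. Of 9 markers, 3 passed with the inhibitor, all lower (Ttr, Alb and Cps1, 33.3% against 18.2% of all genes), and the other 6 did not, 2 of the 9 having a positive log2 fold change (up to 0.26). Alb fell from 50980 ± 5513 to 29930 ± 1759 CPM (-0.77, adjusted p = 0.000761). The part of these cell types in the members' values was not tested.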

How the data were processed

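Liver RNA of 16 mice was sequenced, 4 per group, and libraries were assigned to groups by their deposited labels. Expected counts for each gene symbol, not scaled between libraries, were deposited by the authors in 1 table, and the submitters' processing notes name STAR, RSEM and the genome build mm39. The methods of the study name HTG EdgeSeq, a probe assay, which fits neither these tools nor the 15.1% of values that are not whole, so what is said of GC content, transcript length and shared sequence holds only if reads were taken along transcripts. Annotation, aligner settings and strand are not given in the sources used here.

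Expected counts were rounded. filterByExpr (minimum count 10, minimum total 15) kept 18335 of 33142 genes with counts. TMM scaling and edgeR's quasi-likelihood test were applied in 1 fit of 16 libraries, with Benjamini-Hochberg adjusted p-values over all genes and a threshold of 0.05. SEs were taken from the log2 fold change and its F statistic. CPM use the TMM-scaled totals. Totals per library ranged from 24317111 to 35820234 (median 29570114), and intervals on summed counts cover counting error only. p-values measure the spread between mice as labeled. R 4.3.3, edgeR 4.0.16, limma 3.58.1 and DESeq2 1.42.0 were used, and the code was tested on simulated data. Members, the 4 lists of related genes, the 10 lists of markers and the tests were chosen with earlier results of these data known.

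Named members are all tested TIMPs and LOX enzymes, a set list of main collagens and MMPs, and the 5 members with the largest increase and decrease among calls in each comparison. Of every other list, up to 3 calls per comparison, the most abundant gene and the first 3 markers were to be named. Not all of the genes that this rule gives appear in the text. Others are given where counts are accounted for. A gene of the signaling list that this rule would name is not reported here.

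Alternatives were DESeq2, RLE size factors, no filter, a fit of the 2 compared groups, the replicate number as a block, an adjusted p under 0.01, each replicate left out, and offsets for GC content and length of the longest GENCODE M21 transcript (natural spline with 5 degrees of freedom, trends over genes at an average log2 CPM of at least 3), which cover 15858 genes. Replicate libraries differed by a chi-square per gene of at least 20.7, so none was a repeat. Promoters and start sites are from RefSeq, GRCm38.p6. As the counts were made on another build, no gene positions of the counts are given. Overlaps of exons are from GENCODE M21.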

Additional observations from a re-analysis of the deposited data

Results flagged for a closer look

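In 11 of 124 sets of 4 libraries (31 members in 4 groups), 1 library stood apart from the other 3 of its group by Dixon's test, which chance alone would do in about 1 of 20. HFD replicate 2 stood apart for 3 members, Col4a1 (85.61 CPM, others 56.29 to 60.08), Col4a2 (59.08, others 38.46 to 41.56) and Col27a1 (52.89, others 35.69 to 37.67). The remaining high values were Col4a2 in LFD replicate 1 (51.9 CPM, others 35.15 to 37.42), Col6a1 in LFD replicate 3 (12.57, others 8.405 to 9.056), Col14a1 in HFD + siRNA replicate 3 (112.9, others 102 to 103), Lox in HFD + siRNA replicate 4 (0.3516, others 0.2791 to 0.2913), Col1a2 in HFD + Inhib replicate 1 (16.82, others 12.83 to 13.21) and Mmp19 in HFD + Inhib replicate 2 (78.07, others 60.58 to 63.53). Low values were Mmp2 in HFD + siRNA replicate 2 (2.658 CPM, others 3.809 to 4.046) and Timp2 in HFD + Inhib replicate 1 (8.657, others 9.894 to 9.972). LFD replicate 3 is also the library with the highest sum of myofibroblast markers (80.8 CPM), and the part of those cells in its Col6a1 value was not tested.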

How the results depend on the processing

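Of the 33 calls of members, 19 held under every alternative that gave them a value (14 of the 15 for Mmp13 in HFD + Inhib against HFD + siRNA, which was not tested in the fit of these 2 groups), 8 were lost with the correction for GC content and length, 13 at an adjusted p under 0.01, 9 in at least 1 fit that left out a library, 3 without the filter on low counts, 2 in the fit of the 2 compared groups and 1 with RLE size factors. DESeq2 lost 0 of them. The number of members called in HFD against LFD (2) was 6 with the correction and 2 to 4 with a library left out. Of all genes, 15.2% and 10.8% to 19.8% were called in these fits. In HFD + siRNA against HFD (4) it was 2 without the filter, 1 at an adjusted p under 0.01 and 2 to 4 with a library left out. The share of all genes was 4.91%, 3.76% and 5.89% to 10.6% in these fits, against 11.7% as reported. In HFD + Inhib against HFD (11) it was 5 at an adjusted p under 0.01 and 8 to 12 with a library left out, and in HFD + Inhib against HFD + siRNA (16) it was 12 to 18 with a library left out. Against HFD, 9.45% of all genes were called at an adjusted p under 0.01 and 13.6% to 16.3% with an HFD library left out. Against HFD + siRNA, 26.5% to 33.4% were called with an HFD + siRNA library left out. The correction turned Col18a1 in HFD + Inhib against HFD + siRNA from -0.13 to 0.207 (adjusted p = 0.0307), and the cause was not tested. A stricter threshold keeps fewer calls by construction. Counts of a few reads per library, as for Mmp13, Timp1 and Mmp8, limit what depth can show.

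The replicate numbers do not pair mice by the labels, and the deviations of same-numbered libraries correlated between -0.132 and 0.336. With the replicate block, the counts of members called were 2, 3, 12 and 17 in the order of the comparisons above, and Col14a1 in HFD + siRNA against HFD was no longer past the threshold (adjusted p = 0.0568), whereas Col6a3 in HFD + Inhib against HFD (adjusted p = 0.0385) and Col1a2 in HFD + Inhib against HFD + siRNA (adjusted p = 0.0471) came past it. The shares of all genes called with the block were 18%, 11.3%, 18.2% and 33.8%.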
